A study of Mus musculus with 18 samples.

Results

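The 54 genes described here carry the symbols of translation initiation and elongation factors, and they were chosen from 16675 genes by symbol alone. The platform symbol had to start with Eif or Eef and a digit, and Eif2ak1 to Eif2ak4, Eif2s1, Eif4ebp1 and Eif4ebp2 were left out. NMuMG cells, an established mouse mammary epithelial line, were treated with 10 nM halofuginone (HF) or with 10 nM MAZ1310, an inactive HF analog that served as the negative control, for 8 hr. Both groups were freshly plated into serum- and insulin-containing medium, and both compounds were diluted in acidified DMSO; cells without either compound were not analysed here. RNA from 3 HF cultures and 3 MAZ1310 cultures was hybridized to 1-color whole-genome arrays, with 3 technical arrays per culture and 18 arrays in all.

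Initiation factors bring the initiator tRNA, the small ribosomal subunit and the capped mRNA together and select the start codon, and elongation factors then deliver aminoacyl-tRNAs and move the ribosome along the message. The factor eIF2 carries the initiator tRNA and is recharged with GTP by eIF2B; phosphorylation of eIF2 blocks that exchange, which is the entry point of the integrated stress response. HF inhibits the prolyl-tRNA synthetase and so activates the eIF2 kinase GCN2. The factor eIF3 is a large scaffold on the small subunit, eIF4 complexes bind the cap and unwind the mRNA leader, and eEF1 and eEF2 drive elongation. Many mRNAs of this machinery begin with a terminal oligopyrimidine tract, through which mTOR signaling controls their translation.

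Of the 54 symbols, 47 are current and 7 are older names. Eif3eip is Eif3l, Eif1ay is Eif1ax, Eif3j is Eif3j1, and Eif2c1 to Eif2c4 are the Argonaute genes Ago1 to Ago4, which bind small RNAs and are not translation factors in the strict sense. Current symbols such as Eef1a1, Eif1 and Eif4a3 did not match a probe and were not analysed here. The members were read by 76 probes, and 19 members had more than 1 probe. Array intensities ran up to 65535, which is 16 on the log2 scale, and array medians lay between 249.7 and 251.2 after normalization. Array values give each transcript's share of the signal, so a change in RNA per cell and a change in the mix of cells cannot be told apart. None of the 10 epithelial, 8 fibroblast, 6 blood and endothelial or 6 adipocyte marker genes passed the test between treatments (limma; before adjustment, 1 epithelial marker was past 0.05 in each direction, 1 blood and endothelial marker was lower, and 0 of the others were past it). The epithelial marker Cdh1 averaged a log2 intensity of 13.68 in HF cultures and 13.41 in MAZ1310 cultures, while Tacstd1, the older symbol of Epcam, lay at 6.07 in HF and 5.94 in MAZ1310 cultures, under the lower quartile of all probes (6.58). Fibroblast markers ranged over 5.71 to 6.75 in HF cultures and 5.83 to 6.95 in MAZ1310 cultures.

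HF changed the mRNA of 1 of the 54 translation factor genes past the threshold. Eif3c, a core subunit of eIF3, was higher by 0.82 on the log2 scale in HF cultures than in MAZ1310 cultures (limma, Benjamini-Hochberg adjusted p = 0.0217), and 0 members were lower. Over all genes, 242 (1.45%) were called higher and 262 (1.57%) were called lower by the same test, against 1 member (1.85%) and 0 members, so the members' share of calls was near the background. No member changed by more than 2-fold in array signal, compared with 434 of all genes (2.6%). The log2 fold changes of the members had a median of -0.05, with quartiles of -0.25 and 0.18, and those of all genes had a median of -0.002 with quartiles of -0.18 and 0.15. The value was positive for 23 members and negative for 31.

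The spread of the members' values was as follows. The median absolute log2 fold change was 0.23 for the members and 0.17 for all genes, with a median SE of 0.19 for the members and 0.18 for all genes. The fold changes are those of array signal, and in the paper's own check array log2 ratios rose less steeply than quantitative RT-PCR ratios. For 42 of 54 members (77.8%), the 95% confidence interval excluded a 2-fold change in array signal in either direction, as it did for 81.2% of all genes. These include 4 members whose signal was at the top of the array scale or near background (Eef1g, Eef1b2, Eif2s3y and Eif5a2), for which the interval says little, and without them the count was 38 of 50 (76%). All 3 HF cultures lay above all 3 MAZ1310 cultures for 7 members (13%), namely Eef1g, Eif2s2, Eif3c, Eif3d, Eif3m, Eif4a1 and Eif4e, and for 11.2% of all genes. All 3 HF cultures lay below all 3 MAZ1310 cultures for 6 members (11.1%), namely Eef2k, Eif2b4, Eif2b5, Eif4e3, Eif4enif1 and Eif4h, and for 9.85% of all genes. Before adjustment, 4 members (7.41%; Eif3c, Eif3d, Eif4a1 and Eif4g3) had a positive value past the 0.05 threshold, against a background of 7.94%, and 7 members (13%; Eef2k, Eif2a, Eif2b4, Eif2b5, Eif3eip, Eif4e3 and Eif4h) had a negative one, against 8.53%.

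**Figure D1:**
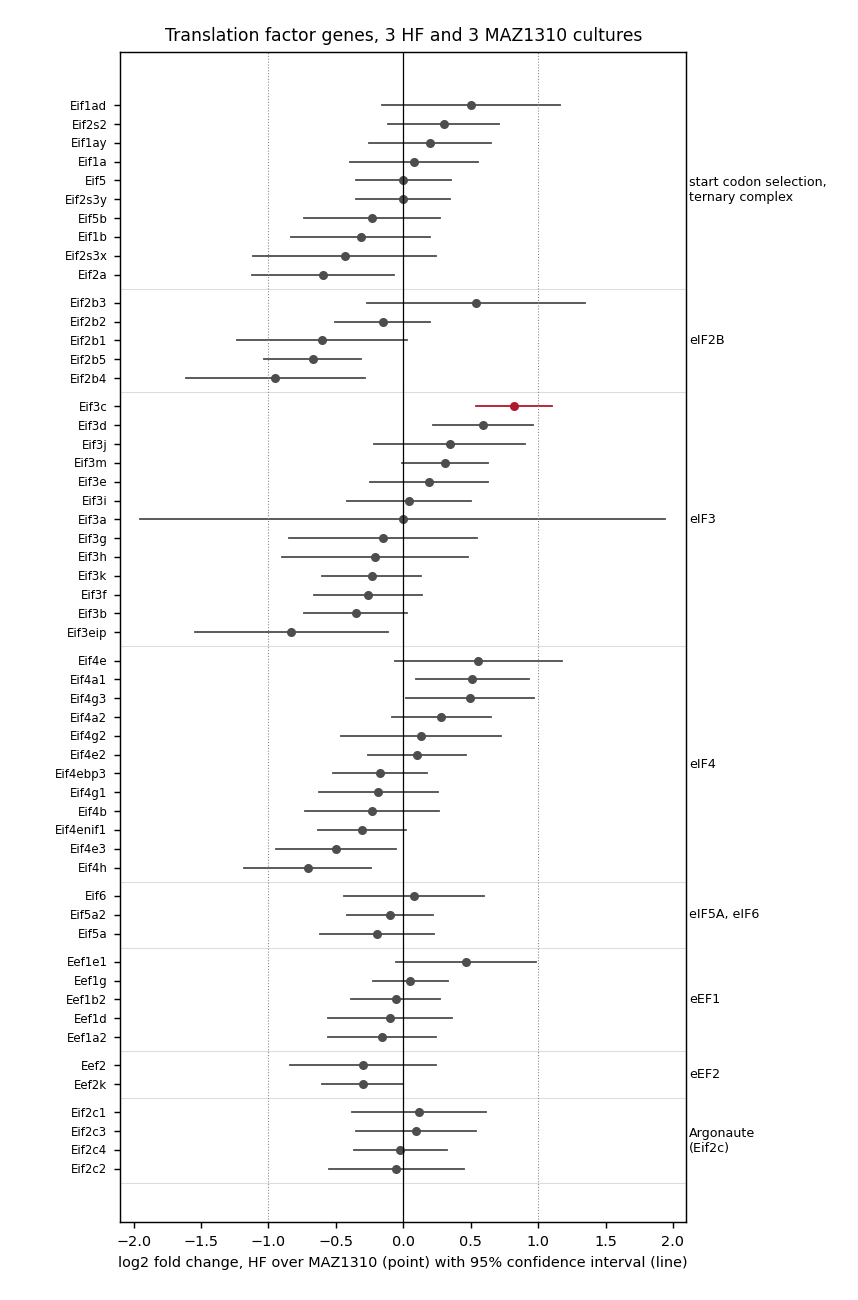
Log2 fold change of HF over MAZ1310 for each of the 54 genes, grouped by role, with points for the estimate and lines for the 95% confidence interval (3 cultures per treatment; dotted lines mark a 2-fold change). Eif3c, in red, passed an adjusted p of 0.05; the interval of Eif3a runs from -1.95 to 1.94.

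**Figure D2:**
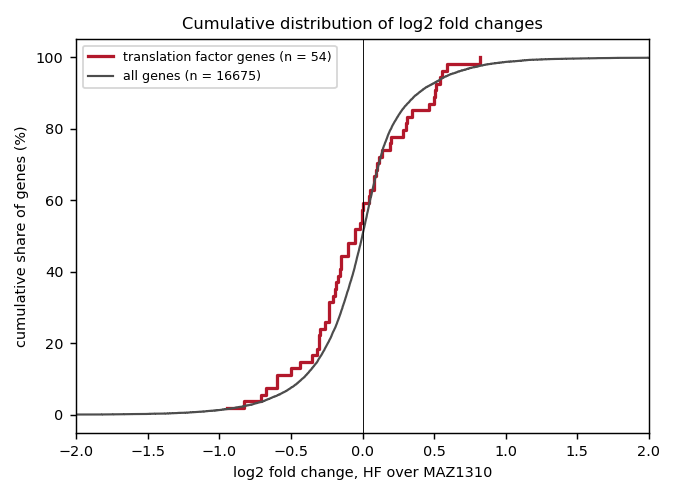
Cumulative share of genes (percent) against the log2 fold change of HF over MAZ1310, for the 54 translation factor genes (red) and all 16675 genes (grey). The medians lie at -0.05 for the translation factor genes and -0.002 for all genes, and the axis ends at 2 in each direction.

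The eIF3 complex showed values in both directions. Of its 13 measured subunits and associated genes, 1 rose, 0 fell and 12 did not pass, with a median log2 fold change of -0.003 and a range of -0.83 to 0.82. Eif3c had log2 intensities of 13.46, 13.42 and 13.37 in HF cultures, against 12.68, 12.54 and 12.56 in MAZ1310 cultures. These groups did not overlap. The technical arrays ranged from 13.01 to 13.67 (median 13.39) in HF cultures and from 12.30 to 12.92 (median 12.61) in MAZ1310 cultures. The culture means were 13.42 ± 0.05 for HF and 12.59 ± 0.07 for MAZ1310 (SD, n = 3 each), a 1.77-fold difference with a 95% interval of 0.54 to 1.11 on the log2 scale and an SE of 0.12. Its 2 probes gave log2 fold changes of 0.77 and 0.88, with limma adjusted p = 0.0663 and 0.0548 in the test over single probes, in which 0 of the 76 member probes and 491 of 21973 probes were called.

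The call of Eif3c was lost when any culture but MAZ1310 replicate 1 was left out. The limma adjusted p was 0.0750, 0.0876 and 0.0617 without HF replicate 1, 2 and 3, and 0.0966 and 0.0929 without MAZ1310 replicate 2 and 3, while it was 0.0395 without MAZ1310 replicate 1. It was 0.0526 when the brightest probe stood for each gene. The log2 fold change stayed between 0.80 and 0.88 in all 17 alternatives, several of which could not move this value. The bases around the annotated start of Eif3c are shown because it is the gene that passed; they are RefSeq sequence of GRCm38.p6, chr7:126566357-126566466 on the minus strand, with the first 10 transcribed bases in capitals.
Eif3c: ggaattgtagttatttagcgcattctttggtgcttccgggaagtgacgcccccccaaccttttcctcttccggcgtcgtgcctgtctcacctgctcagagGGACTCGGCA

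Eif3d, the eIF3 subunit that can bind the cap of some mRNAs, had the next largest positive value. Its log2 intensities were 14.69, 14.71 and 14.82 in HF cultures, against 14.39, 13.92 and 14.13 in MAZ1310 cultures. The groups did not overlap, but the log2 fold change of 0.59 ± 0.16 (SE) did not pass (limma adjusted p = 0.102). Eif3m, a subunit of the eIF3 octamer, was also separated between treatments, at 14.64, 14.86 and 14.75 in HF cultures and 14.57, 14.32 and 14.42 in MAZ1310 cultures, with a log2 fold change of 0.31 (limma adjusted p = 0.315).

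Eif3eip, which encodes the subunit eIF3l, had the lowest value of the complex. It lay at 13.37, 12.82 and 12.37 in HF cultures, against 14.09, 13.73 and 13.23 in MAZ1310 cultures, so that the highest HF culture was above the lowest MAZ1310 culture. Its log2 fold change of -0.83 ± 0.31 (SE) did not pass (limma adjusted p = 0.229). The remaining subunits Eif3b, Eif3e, Eif3f, Eif3g, Eif3h, Eif3i, Eif3j and Eif3k ranged from -0.35 for Eif3b to 0.34 for Eif3j, and the cultures overlapped for each of them. The values of Eif3h and Eif3g were -0.21 and -0.15, and 0.01 and -0.05 when 1 low array of HF replicate 3 was left out for each.

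Eif3a, the largest eIF3 scaffold subunit, could not be measured to useful precision from both of its probes. Probe mMC024188 lay between 5.51 and 12.47 over the 18 arrays, near 5.5 on all 3 arrays of HF replicate 1 and at 5.66 and 11.56 on arrays of the same MAZ1310 culture, replicate 1. Probe mMR028275 stayed between 12.77 and 14.10. The probes gave log2 fold changes of -0.03 and 0.03, and the gene as a whole had an SE of 0.83 and a 95% interval of -1.95 to 1.94. The second probe alone had an interval of -0.55 to 0.61.

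**Figure D3:**
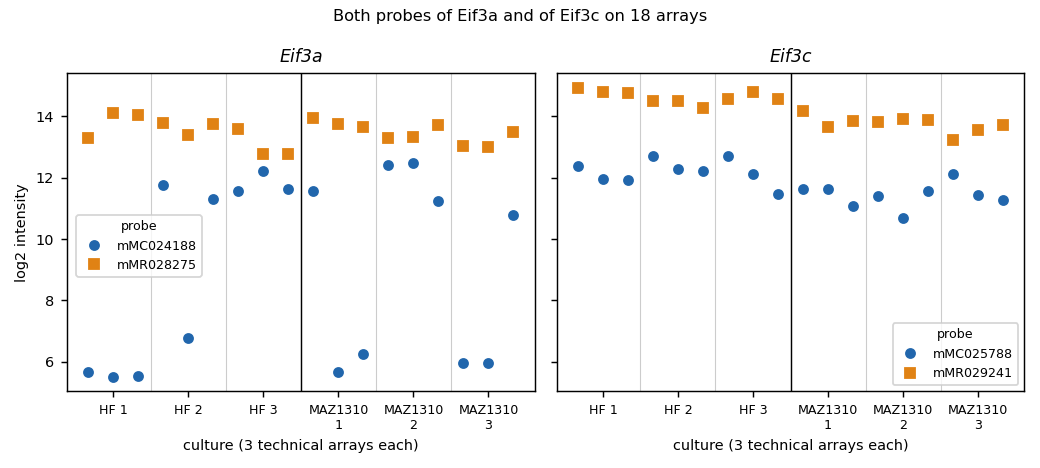
Log2 intensity of both probes of Eif3a (left) and Eif3c (right) on the 9 HF and 9 MAZ1310 arrays, ordered by culture. One Eif3a probe takes values from 5.51 to 12.47 while the other stays between 12.77 and 14.10.

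The eIF2B exchange factor had negative values for 4 of its 5 subunits, none past the threshold. The median log2 fold change was -0.60 and the range was -0.95 to 0.54. Eif2b5, the catalytic epsilon subunit, had log2 intensities of 11.39, 11.49 and 11.56 in HF cultures, against 12.05, 12.01 and 12.40 in MAZ1310 cultures. The groups did not overlap, and the log2 fold change was -0.67 with a 95% interval of -1.03 to -0.32 (limma adjusted p = 0.0683). It was past the threshold in 3 of 17 alternatives. In the fit of all 18 arrays with culture as a random block the limma adjusted p was 0.0377, and with a block for replicate number it was 0.0214. It was 0.0483 without technical array 2 of HF replicate 3, an alternative chosen after seeing the data. Each of these settings also called more of all genes than the main fit.

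Eif2b4, the delta subunit, had the most negative value of all members. It lay at 10.24, 9.64 and 9.16 in HF cultures and 10.84, 10.70 and 10.35 in MAZ1310 cultures, without overlap, for a log2 fold change of -0.95 ± 0.28 (SE) that did not pass (limma adjusted p = 0.137). One array of HF replicate 3 read 7.46, when the other HF arrays reached up to 10.53, and the log2 fold change was -0.66 without that array. That array also had the lowest correlation with the other arrays of its treatment (0.9648).

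The regulatory alpha subunit Eif2b1 had log2 intensities of 10.14, 10.40 and 10.03 in HF cultures and 11.25, 10.21 and 10.92 in MAZ1310 cultures. MAZ1310 replicate 2 lay within the HF range, and the log2 fold change of -0.60 ± 0.27 (SE) did not pass (limma adjusted p = 0.333). Eif2b2, the beta subunit, was at -0.15 with overlapping cultures (limma adjusted p = 0.767). Eif2b3, the gamma subunit that forms the catalytic pair with epsilon, had the opposite sign, with 12.54, 12.06 and 11.95 in HF cultures and 12.24, 11.80 and 10.89 in MAZ1310 cultures. MAZ1310 replicate 3 was the low one, through 1 array that read 9.35 when the other 17 arrays read 11.38 to 12.80. The log2 fold change was 0.54 ± 0.34 (SE; limma adjusted p = 0.557), and 0.28 without that array.

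**Figure D4:**
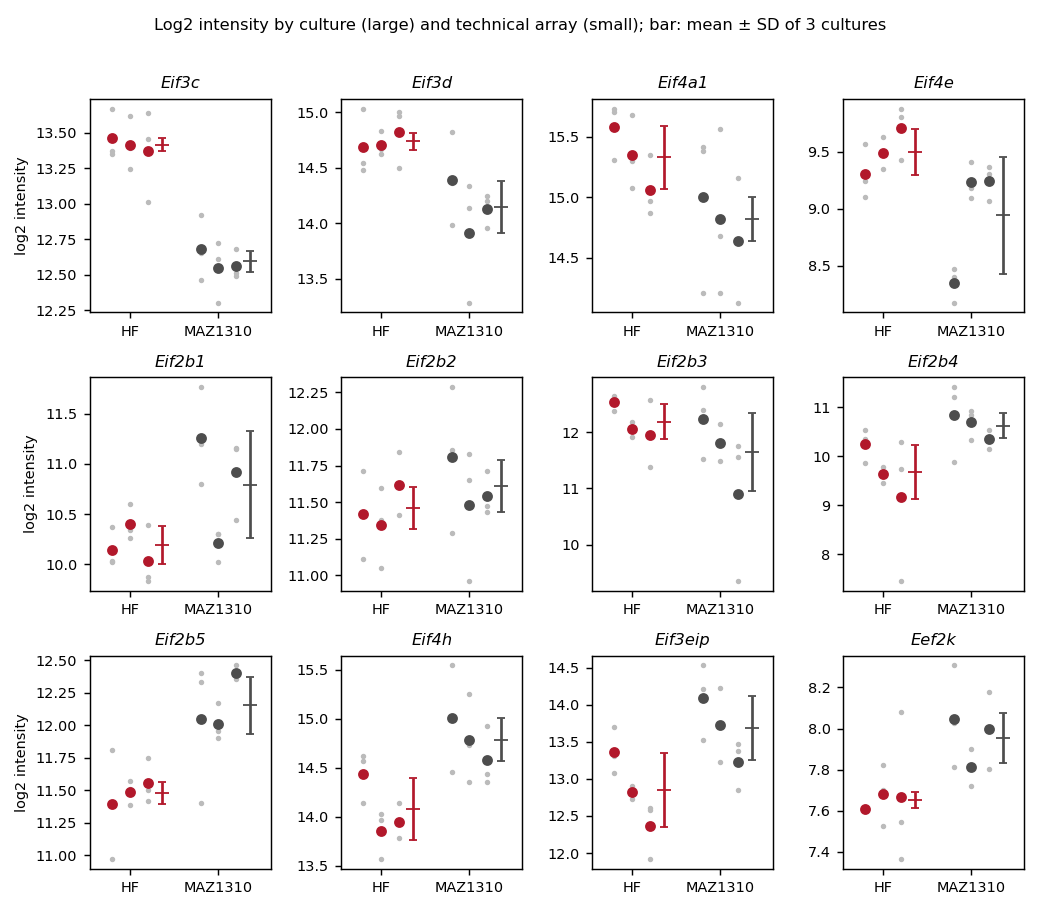
Log2 intensity of 12 genes in HF cultures (left, red) and MAZ1310 cultures (right, grey), with large points for cultures, small points for technical arrays and bars for the mean ± SD of 3 cultures; each panel has its own axis. Eif3c, Eif3d, Eif4a1 and Eif4e are separated by culture with HF higher, and Eif2b4, Eif2b5, Eif4h and Eef2k with HF lower.

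The genes of start codon selection and the ternary complex of eIF2, GTP and initiator tRNA were spread evenly around no change. Among 10 genes, 5 values were positive and 5 negative, with a median of -0.0009, and none passed. Eif2s2, the beta subunit of eIF2, lay at 11.64, 11.86 and 11.73 in HF cultures and 11.11, 11.61 and 11.61 in MAZ1310 cultures, a log2 fold change of 0.30 (limma adjusted p = 0.508). Its HF cultures were all higher, the nearest by little. Eif2s3x, the gamma subunit, was at -0.43 ± 0.29 (SE; limma adjusted p = 0.582), and HF replicate 3 was the low culture at 12.35.

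Eif2a, an eIF2-independent initiator tRNA carrier that is distinct from the eIF2 alpha subunit, had the most negative value of the group. It was 12.89, 12.88 and 13.25 in HF cultures, against 13.18, 13.67 and 13.96 in MAZ1310 cultures. HF replicate 3 overlapped the lowest MAZ1310 culture, and the log2 fold change of -0.60 ± 0.22 (SE) did not pass (limma adjusted p = 0.240). Eif1ad, which encodes an eIF1A-domain protein of small subunit assembly, had the largest positive value, 0.50 (limma adjusted p = 0.475), with 13.71, 13.19 and 12.82 in HF cultures and 13.15, 12.71 and 12.35 in MAZ1310 cultures. Eif5, the GTPase activator of eIF2, was at 0.001 with a 95% interval of -0.35 to 0.35.

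The eIF4 group held 6 positive and 6 negative values, with a median of -0.03, and none of the 12 passed. Eif4a1, the RNA helicase of the cap-binding complex, had log2 intensities of 15.58, 15.35 and 15.06 in HF cultures, against 15.00, 14.82 and 14.63 in MAZ1310 cultures. The cultures did not overlap, and the log2 fold change was 0.51 ± 0.18 (SE; limma adjusted p = 0.201). Eif4e, the cap-binding protein, lay at 9.31, 9.49 and 9.71 in HF cultures and 8.35, 9.23 and 9.25 in MAZ1310 cultures, for a log2 fold change of 0.56 ± 0.26 (SE; limma adjusted p = 0.367). MAZ1310 replicate 1 was the low culture, and the other MAZ1310 cultures were just under the lowest HF culture.

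Eif4h, a helper of the eIF4A helicase, had the most negative value of the group. It was 14.44, 13.85 and 13.95 in HF cultures, against 15.01, 14.78 and 14.57 in MAZ1310 cultures. These did not overlap, and the log2 fold change of -0.71 had a 95% interval of -1.18 to -0.24 (limma adjusted p = 0.121). Eif4e3, an atypical cap-binding protein, was at -0.50 (limma adjusted p = 0.242), and Eif4enif1, the shuttling partner that carries eIF4E into the nucleus, was at -0.31 (limma adjusted p = 0.344). Eif4g3, a scaffold that joins the cap-binding protein to the helicase, was at 0.50 (limma adjusted p = 0.277) with overlapping cultures. Eif4b, Eif4ebp3, Eif4g1, Eif4g2, Eif4a2 and Eif4e2 lay between -0.23 and 0.28.

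No elongation factor passed the limma test, and before adjustment Eef2k alone was past 0.05 by its gene value. Among the 5 eEF1 genes, the 3 that were not at the top of the array scale ranged from -0.16 for Eef1a2 to 0.46 for Eef1e1 by gene. The 2 probes of Eef1d lay 7.66 log2 units apart, and the brighter gave -0.38 and the dimmer 0.19. Those of Eef1a2 gave -0.24 and -0.07. Eef2, the translocase, lay at 11.59, 11.14 and 10.72 in HF cultures and 11.65, 11.34 and 11.35 in MAZ1310 cultures, with a log2 fold change of -0.30 (limma adjusted p = 0.665). The 3 Eef2 probes gave -0.48, -0.30 and -0.30. The first, the brightest, had a limma p of 0.0265 before adjustment and 0.23 after it in the test over single probes. Eef2k, the kinase that inactivates eEF2, lay at 7.61, 7.68 and 7.66 in HF cultures and 8.05, 7.81 and 8.00 in MAZ1310 cultures. Its cultures were separated, and its 2 probes gave -0.32 and -0.28, but its limma adjusted p was 0.298. Eef1e1, a small protein of the multi-tRNA synthetase complex, was at 0.46 with overlapping cultures (limma adjusted p = 0.372).

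The probes of some elongation factor genes reached the top of the array scale. Eef1g, a subunit of the eEF1 exchange complex, held the highest value of its array on 9 of 9 HF arrays and 8 of 9 MAZ1310 arrays, so that no fold change can be read from its separated cultures. Eef1b2, the exchange subunit itself, did so on 3 HF and 7 MAZ1310 arrays, and its fold change is limited in the same way. For Eif5a and Eif4g2, 1 probe each reached the top on at most 2 arrays of a treatment. At the dim end, Eif2s3y and Eif5a2 lay under the lower quartile of all probes in the mean over arrays, and log2 fold changes of -0.003 and -0.10 there say little about the transcripts. A probe under that quartile also entered the gene values of Eef1a2, Eif2c4, Eif4e3, Eif4ebp3 and Eif5b. For Eif4e3 this probe gave -0.55 and the brighter one -0.45.

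The 3 genes of eIF5A, which relieves stalled ribosomes, and eIF6, which keeps the ribosomal subunits apart, had log2 fold changes between -0.19 for Eif5a and 0.08 for Eif6. Eif5a also had the largest spread between probes, with log2 fold changes of -0.86, -0.43 and -0.21, but the first rests on 1 array of HF replicate 2 that read 6.01 when the other 17 read 11.94 to 13.07. Without that array this probe was at -0.17, and the spread between the 3 probes fell to 0.26, against 0.65 with it. Of the 19 members with several probes, the probes had the same sign for 12 and opposite signs for 7. The 4 Argonaute genes ranged from -0.05 to 0.11; without them the median of the other 50 members was -0.10.

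Paralogs were compared within cultures, since both probes of a pair were read on the same arrays. The change of one gene was set against that of the other in 8 pairs, by a two-sided exact permutation test over the 6 cultures whose smallest p is 0.1, so that no pair could pass 0.05. The largest difference was between the cap-binding proteins, where the log2 fold change of Eif4e exceeded that of Eif4e3 by 1.06 ± 0.50 (SE; exact permutation p = 0.1, adjusted over the pairs 0.533). This difference was 0.88 with the brightest probe for each gene and 0.57 without MAZ1310 replicate 1. Eif4e exceeded Eif4e2 by 0.45 ± 0.30 (exact permutation p = 0.2), by 0.18 without that culture and by 0.15 with the brightest probe. The scaffold pair Eif4g1 and Eif4g3 differed by -0.68 ± 0.31 (exact permutation p = 0.2), and Eif4g1 and Eif4g2 by -0.32 ± 0.42 (exact permutation p = 0.5); the Eif4g1 and Eif4g2 difference lay between -0.61 without MAZ1310 replicate 2 and 0.02 without MAZ1310 replicate 3.

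The helicases Eif4a1 and Eif4a2 differed by 0.23 ± 0.19 (exact permutation p = 0.3), with both values positive. The difference was 0.06 without MAZ1310 replicate 3, 0.37 without MAZ1310 replicate 1 and -0.005 with the brightest probe for each gene. The 2 Eif4a2 probes gave log2 fold changes of 0.05 and 0.52. The X- and Y-linked copies of the eIF2 gamma subunit, Eif2s3x and Eif2s3y, differed by -0.43 ± 0.46 (exact permutation p = 0.6), by -0.02 without HF replicate 3 and by -0.73 without HF replicate 1. Eif5a and Eif5a2 differed by -0.09 ± 0.14 (exact permutation p = 0.6) and Eif1a and Eif1ay by -0.12 ± 0.21 (exact permutation p = 1). Eif2s3y and Eif5a2 are the dim members, so the differences from them are differences from near-background signal. With each culture left out in turn, the Eif5a and Eif5a2 difference lay between -0.21 and 0.02 and the Eif1a and Eif1ay difference between -0.23 and 0.09. The former was -0.40 with the mean over probes, and the latter 0.12 without technical array 2 of HF replicate 3. Adjusted over the 8 pairs, the smallest value was 0.533.

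Genes of translation outside the symbol rule were read from a list of 52, of which 48 were measured. Of these, 3 rose (6.25%, against 1.45% of all genes), 1 fell (2.08%, against 1.57%) and 44 did not pass, and their median log2 fold change was -0.03. The list was chosen with earlier results of these data known, so its shares describe the list and do not test it. Myd116, the older symbol of Ppp1r15a, encodes the stress-induced subunit that directs a phosphatase to eIF2. It lay at 11.24, 11.48 and 11.46 in HF cultures, against 8.93, 8.80 and 9.16 in MAZ1310 cultures, which is 5.39-fold higher (limma adjusted p = 0.00141). Eif4ebp1, the repressor that binds eIF4E, was 10.55, 10.46 and 10.45 in HF cultures and 9.61, 9.52 and 9.36 in MAZ1310 cultures (log2 fold change 0.99, limma adjusted p = 0.0187). No culture overlapped in either gene.

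Ddx3x, an RNA helicase that assists initiation, lay at 14.38, 14.72 and 14.92 in HF cultures and 13.22, 13.77 and 13.75 in MAZ1310 cultures, 2.13-fold higher (limma adjusted p = 0.0451). Mknk2, a kinase that phosphorylates eIF4E, lay at 9.25, 9.79 and 9.79 in HF cultures and 11.13, 11.45 and 11.67 in MAZ1310 cultures, a log2 fold change of -1.80 (limma adjusted p = 0.0121). Leaving out single cultures moved the limma adjusted p of Ddx3x to 0.0750, 0.150 and 0.122 without HF replicate 1, 2 and 3 and to 0.0733, 0.109 and 0.105 without MAZ1310 replicate 1, 2 and 3. For Eif4ebp1 it was 0.0597, 0.0785 and 0.0536 without HF replicate 1, 2 and 3 and 0.0840 and 0.0704 without MAZ1310 replicate 2 and 3. For Mknk2 it was 0.0612 without HF replicate 2 and 0.0648 without MAZ1310 replicate 2. Myd116 passed in each case. With the brightest probe for each gene, the limma adjusted p was 0.107 for Eif4ebp1 and 0.0505 for Ddx3x, while Mknk2 and Myd116 passed.

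Several genes of this list came near the threshold. Etf1, the release factor that recognizes stop codons, had a log2 fold change of 1.12 (limma adjusted p = 0.0543), and Eif2s1, the eIF2 alpha subunit that is phosphorylated in the stress response, had 0.60 (limma adjusted p = 0.0804). The eIF2 kinase gene Eif2ak2 had -1.06 (limma adjusted p = 0.0867). Dph5, an enzyme of the diphthamide modification of eEF2, had 0.87 (limma adjusted p = 0.0713). All 4 were separated between the cultures of HF and MAZ1310, but they were picked for a small p, so this adds little to it. Over all genes, 11.2% were separated with HF higher and 9.85% with HF lower. None of the 6 release and recycling factors, 4 reinitiation factors or 8 mitochondrial and selenocysteine factors passed in limma. Before adjustment, Etf1 was past 0.05 with a positive value and 2 mitochondrial or selenocysteine factors with a negative one. Of all genes, 7.94% were past it with a positive value and 8.53% with a negative one.

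Promoter sequences were found in RefSeq (GRCm38.p6) for 42 of the 54 members, as 57 windows of 250 bases before to 50 bases after an annotated start. The C/EBP-ATF response element, searched as TGATGNAAN on both strands, was present in 2 of these windows and in 3.95% of 32851 promoters. The matches were in Eef2k, 85 bases before its start, and in Eif2s3x, 97 bases before its start; neither gene passed the test. They are shown with the match in capitals, from chr7:120851094-120851122 on the plus strand and chrX:94212730-94212758 on the minus strand.
Eef2k: ctttctgcttGTTTCATCAagctcagctt
Eif2s3x: ttcgccatcaTTTTCATCAggtctatgcc

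A start of the oligopyrimidine kind, read as C at the annotated start followed by 4 bases that are C or T, was present in 2 member windows and in 2.51% of all promoters. It was found in Eif3f and Eif2s3x, whose log2 fold changes of -0.26 and -0.43 did not pass. The 30 bases around each start are shown with the first 5 transcribed bases in capitals, from chr7:108934395-108934424 on the plus strand and chrX:94212642-94212671 on the minus strand. Eif3c begins with GG in this annotation and does not match. The match was read from the annotated base alone, so a tract that begins at another base was not counted.
Eif3f: gctcttctgttctaggctctCTCTCtttct
Eif2s3x start: ggcggctgccgagcattttcCTTTTctctc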

How the data were processed

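Total RNA of 3 HF and 3 MAZ1310 cultures was labeled with Cy5 and read on 3 technical arrays per culture. The deposited values are linear intensities, which the authors quantile-normalized across the 18 arrays once probes lacking a value, or with one below 0, on at least 1 array had been removed; the scanner and background correction are not given in the sources used here. Of 21973 probes, 21020 had 1 gene symbol in the platform annotation, and 953 without a single symbol were left out of the gene values. Intensities were converted to log2, and the median over probes gave 16675 genes. Technical arrays of a culture were averaged, so that n = 3 per treatment (consensus correlation between technical arrays 0.289).

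HF was compared with MAZ1310 over all genes by two-sided tests in limma 3.58.1 (R 4.3.3), fitting lmFit and then eBayes to a model with no term but the treatment. The p-values were adjusted by Benjamini-Hochberg over all genes, and genes under 0.05 were called. The labels number the cultures as biological replicates, and p-values measure the spread between these cultures. Precision depends on how many cultures there are, and no detection call was used. The test was checked on simulated cultures. The members, the lists and the tests were chosen with earlier results of these data known. The genes named were each member past the threshold, among the rest the 6 most positive and the 6 most negative log2 fold changes, the members of the paralog pairs and the member with the largest spread between probes; others were named by role or chosen after their values were seen. Of 11 paralog pairs listed, 8 could be run, Eif1ay standing for Eif1ax. Motifs were counted as string matches in RefSeq promoters. Alternatives covered array scaling, dim probes, probe and technical array summaries, the eBayes prior, Storey q-values (lambda 0.5), a replicate block and each culture left out.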

Additional observations from a re-analysis of the deposited data

How the results depend on the processing

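Eif3c kept its direction in all 17 alternatives and was called in 11 of them; over the 54 members and the 4 other genes that passed, 933 values stayed on their side of the threshold within their error, 21 no longer passed, 10 newly passed, 20 moved by more than their error, and no called value changed sign. Blocks, the eBayes prior and Storey q-values cannot move a fold change, and probe summaries cannot move that of a gene with 1 probe. With the replicate block, 4 of 54 members were called higher (Eif3c, Eif3d, Eif4a1 and Eif1ad) and 5 lower (Eif2b4, Eif2b5, Eif3eip, Eif4h and Eif2a). Their limma adjusted p lay between 0.0106 and 0.0452. Over all 16675 genes, 891 were called higher and 901 lower. Among the 48 other translation genes, 6 were called higher and 4 lower. The labels do not say what a replicate number shares: deviations of same-numbered cultures correlated at 0.672, 0.0792 and 0.69, and MAZ1310 replicate 2 correlated best with HF replicate 3 (0.265). With all 18 arrays and culture as a random block, 1 member was called lower (Eif2b5), 615 genes higher and 513 lower, and 6 higher and 3 lower among the other translation genes. The brightest probe gave 0 members higher and 1 of the other translation genes higher, and the median over technical arrays gave 133 genes higher. Leaving out each culture in turn gave 0 to 1 members higher and 0 lower, 33 to 135 genes higher and 15 to 204 lower, and 1 to 2 of the other translation genes higher and 0 to 1 lower; the fewest genes were called without HF replicate 2. Without technical array 2 of HF replicate 3, an alternative chosen after seeing the data, 1 member was called lower (Eif2b5, limma adjusted p = 0.0483), with 320 genes higher and 314 lower; leaving out the Argonaute genes, the members at the ends of the scale, and single arrays over 2 log2 units from the others was chosen then too. The median of the members stayed between -0.13 and -0.01. Signal at the top of the array scale limits Eef1g and Eef1b2, and signal near background limits Eif2s3y and Eif5a2. A probe near background also enters the gene values of Eef1a2, Eif2c4, Eif4e3, Eif4ebp3 and Eif5b.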
